A study of Rattus norvegicus with 32 samples.

Results

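The genes described here encode an acute phase protein and the extracellular protease system of the injured brain. They are Lcn2 (lipocalin 2), the tissue inhibitors of metalloproteinases Timp1, Timp2 and Timp3, the gelatinases Mmp9 and Mmp2, the plasminogen activator Plat, the urokinase receptor Plaur and the hyaluronan receptor Cd44. A probe was a member if its gene symbol in the annotation of the array platform was 1 of these 9 names, which gave 11 of the 33849 probes. They are 9 of 12573 genes named on the array. Mmp2 has 3 probes and each other gene has 1. Of the 11 probes, 8 probes of 6 genes passed the filter on probes near background, and Timp3, Plaur and Cd44 did not.

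The samples were laser-captured CA3 pyramidal neurons of the hippocampus of adult male Sprague-Dawley rats, taken as cells that the degeneration stain Fluoro-Jade had left unstained. Rats in the TBI+MT group had moderate fluid percussion traumatic brain injury (TBI) after subcutaneous metyrapone at 100 mg/kg, an inhibitor of glucocorticoid synthesis. Rats in the TBI+CB group had the same injury after subcutaneous carbenoxolone at 30 mg/kg, an inhibitor of 11β hydroxysteroid dehydrogenase, which turns inactive glucocorticoids into active ones and back. TBI rats received saline before the injury. Sham rats had the surgery without the injury, with saline per the methods, although the sample labels call the 4 h sham rats untreated. The times were 4 h and 24 h after injury, which makes 8 groups. Each group had 2 pools of RNA from several rats (n = 2 pools), each hybridized to duplicate CodeLink arrays, for 16 pools and 32 arrays in all.

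Lipocalin 2 is a small secreted protein that binds the siderophores with which bacteria collect iron. It is made by the liver in the acute phase response, by neutrophils, and in the brain by reactive astrocytes and other cells after inflammation. Matrix metalloproteinases cut collagens, laminin and other matrix proteins, and Mmp9 and Mmp2 take part in the opening of the blood-brain barrier after injury. The tissue inhibitors of metalloproteinases bind these proteases and block them. Tissue plasminogen activator converts plasminogen to plasmin, which in turn can activate metalloproteinases. Human lipocalin 2 forms a complex with MMP9 that slows the degradation of MMP9, and such a complex was not examined here.

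Levels are normalized intensities, in multiples of the median of the array, and each pool is the mean of its duplicate arrays. The median raw intensity of an array lay between 9.41 and 67.1, and the share of its probes above background between 26.1 and 65.9%. The median Pearson r over probes was 0.975 between duplicate arrays and 0.873 between the 2 pools of a group. The number of pools, not the number of arrays, limits the precision. Where both pools of a group lie above or below both of another, this describes the pools and tests nothing. The share of all probes in such an order was counted only for all injured against sham pools and for TBI+CB across both times. Slide numbers in the file headers place the arrays in 3 runs, which are assumed here to be batches. Run 1 holds both sham pools and TBI replicate 1 at 4 h, run 2 holds the other 4 h pools with sham and TBI at 24 h, and run 3 holds the drug-treated pools at 24 h. A drug effect at 24 h and slide run 3 therefore cannot be told apart. Nor can a difference of the drug-treated pools from sham at 24 h and slide run 3. At 4 h the drug-treated and sham pools are of different runs, linked only by the TBI group, with 1 pool in each run. In a bulk sample, fewer cells of a type and less RNA per cell cannot be told apart either.

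Lcn2 was the member with the largest difference between injured and sham rats at both times. At 4 h Lcn2 stood at 24.9 and 31.4 in the TBI pools, against 0.703 and 2.59 in the sham pools. The lower sham pool was near background on both of its arrays. The log2 fold change was 4.39 (95% interval 2.38 to 6.40), and within slide run 1 it was 4.22. It was 3.43 without sham replicate 1 and 5.34 without sham replicate 2. At 24 h Lcn2 stood at 25.7 and 39.1 in the TBI pools, against 0.462 and 1.49 in the sham pools. All 4 sham arrays were near background at that time, so the level of sham is only a bound. Lcn2 was at least 27.4-fold higher in TBI than in sham at 24 h (adjusted p = 0.389), measured within slide run 2.

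Lcn2 was also above sham in the drug-treated pools, which are of another slide run than the sham pools of their time. At 4 h it stood at 6.53 and 16.9 in TBI+MT pools and at 12.3 and 15.1 in TBI+CB pools, all below both TBI pools. Against TBI the log2 fold change was -1.42 with metyrapone (95% interval -3.43 to 0.60, adjusted p = 0.736). It was -1.04 with carbenoxolone (95% interval -3.05 to 0.97, adjusted p = 0.957). These intervals include no change, and after quantile normalization the differences were -0.80 with metyrapone and -0.55 with carbenoxolone. Of all probes at 4 h, 70.4% were lower than TBI with metyrapone and 63.3% with carbenoxolone. At 24 h Lcn2 stood at 25.3 and 22.2 in TBI+MT pools and at 60.3 and 9.34 in TBI+CB pools. The 2 carbenoxolone pools thus lay on either side of both TBI pools. The log2 fold changes against TBI at 24 h were -0.43 (95% interval -2.44 to 1.58) and -0.42 (95% interval -2.43 to 1.60).

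At each time all 6 injured pools had more Lcn2 than both sham pools. Of all probes tested, 2.57% had this order at 4 h and 1.17% at 24 h, while 2.01% and 2.17% had the opposite order. Lcn2 was the only one of the 8 tested member probes with either order, at either time. With the 3 injured groups averaged, its log2 fold change against sham was 3.57 at 4 h (standard error 0.754, adjusted p = 0.582), with 2.62 and 4.52 when sham replicate 1 and sham replicate 2 were left out. At 24 h, when sham is only a bound, the injured groups were on average at least 22.5-fold higher (adjusted p = 0.0977). Over the alternatives to this fit the adjusted p at 24 h ran between 0.00363 and 0.974. Without the 2 dimmest 24 h pools, TBI+MT replicate 1 and TBI+CB replicate 2, the adjusted p was 0.108. After quantile normalization Lcn2 passed the threshold (adjusted p = 0.0343), as did 0.0227% of all probes.

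Lcn2 lies on chromosome 3 of the rat genome at chr3:36078432-36081851 (GRCr8) and Timp1 at chrX:3766509-3772578, within a region that overlaps the synapsin gene Syn1. The spans of Timp2 (Cep295nl), Timp3 (Syn3) and Plat (Ikbkb) overlap other genes too, and which transcript each probe detects was not tested. The promoters of both genes are given because these members differed most from sham at 24 h. They run from 250 bases before to 50 bases after a RefSeq start site of GRCr8, both on the minus strand, at chr3:36081731-36082030 for Lcn2 and chrX:3771073-3771372 for Timp1. Capitals mark a match to a searched motif, of which the Timp1 window has none.
Lcn2: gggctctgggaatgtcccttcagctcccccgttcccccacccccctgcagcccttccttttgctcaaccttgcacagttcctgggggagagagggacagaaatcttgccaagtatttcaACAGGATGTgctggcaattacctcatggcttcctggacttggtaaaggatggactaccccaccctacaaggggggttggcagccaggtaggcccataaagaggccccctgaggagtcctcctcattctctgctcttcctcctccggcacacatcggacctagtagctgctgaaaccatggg
Timp1: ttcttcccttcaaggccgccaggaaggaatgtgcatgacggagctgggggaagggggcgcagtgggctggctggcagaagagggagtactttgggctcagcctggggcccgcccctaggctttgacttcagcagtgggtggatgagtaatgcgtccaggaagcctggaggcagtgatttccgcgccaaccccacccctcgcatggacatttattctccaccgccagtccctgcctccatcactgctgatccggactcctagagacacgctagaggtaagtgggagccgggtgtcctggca
The match in the Lcn2 window starts 131 bases before the start site and is to ACANNNTGT, the core of the glucocorticoid response element, which 6.86% of all 33469 promoters of this length hold on either strand. Promoters of 6 of the 9 members were in the table, and 2 held any match. The other was in Plaur, TGACTCA at 83 bases before the start, a match to the AP-1 motif TGANTCA that 7.33% of promoters hold. The other motifs searched on both strands were GGGANTTTC for NF-kB (1.15% of promoters), TTCNNNGAA for STAT (8.87%) and TTGCGCAA for C/EBP (0.17%). A match describes letters only, and no match says only that these letters are not in the window.

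**Figure D1:**
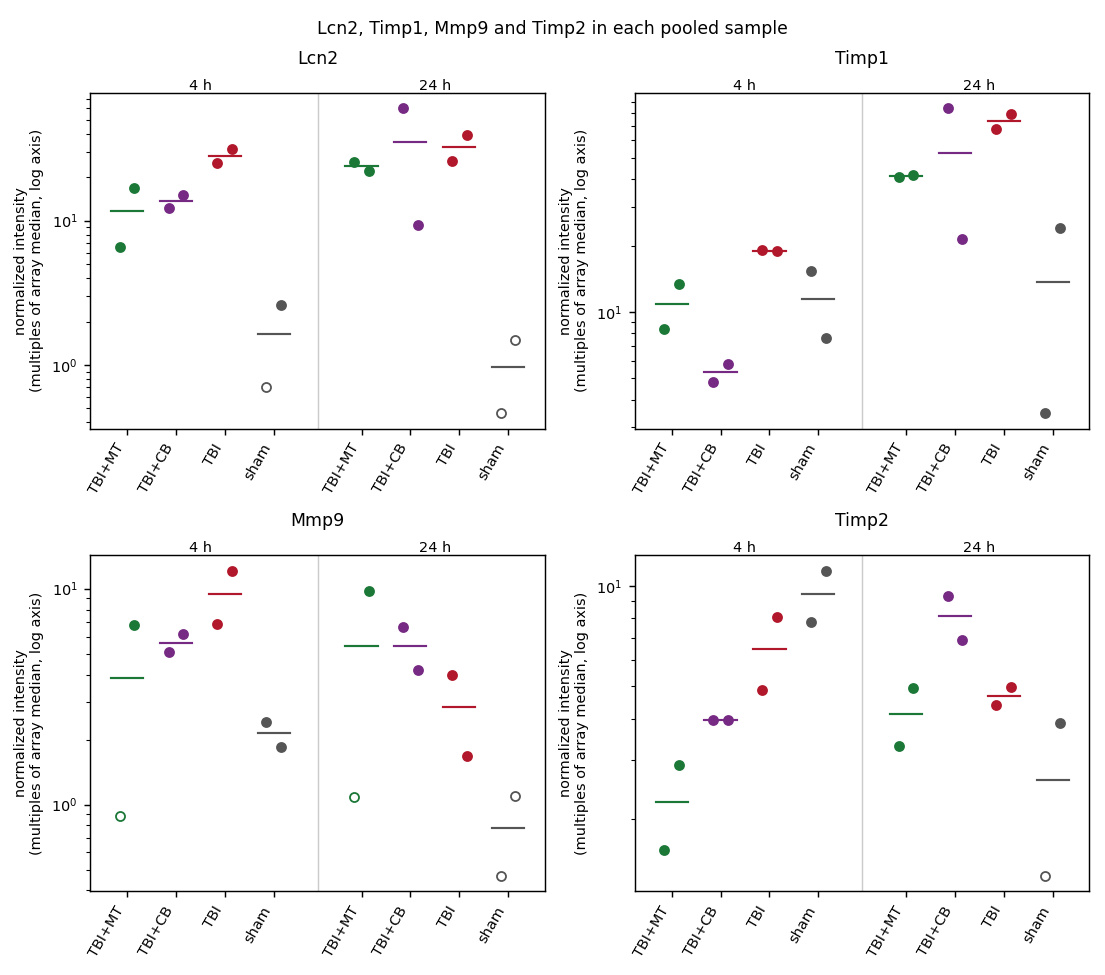
Normalized intensity of Lcn2, Timp1, Mmp9 and Timp2 in each pool (points, replicate 1 left of replicate 2, log axis) with the group mean (bar), filled where both arrays of a pool were above background. Lcn2 was between 6.53 and 60.3 in the 12 injured pools and at most 2.59 in the 4 sham pools, whereas the pools of Timp2 and Mmp9 overlapped more.

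Timp1 encodes a secreted inhibitor that binds most matrix metalloproteinases, among them Mmp9, and is made by reactive astrocytes. Its probe was above background on all 32 arrays. At 4 h Timp1 stood at 19.1 and 18.8 in the TBI pools, against 15.3 and 7.63 in the sham pools. At 24 h it stood at 67.3 and 79.3 in the TBI pools, against 3.47 and 24.0 in the sham pools. Both TBI pools exceeded both sham pools at each time, by more at 24 h. The log2 fold change was 0.81 at 4 h (95% interval -1.03 to 2.65) and 3.00 at 24 h (standard error 0.844, unadjusted p = 0.00399, adjusted p = 1.0). The difference between the 2 times was 2.19 (95% interval -0.41 to 4.79, adjusted p = 1.0). The sham pools at 24 h were far apart, so the value at 24 h was 4.40 without sham replicate 2 and 1.60 without sham replicate 1.

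Timp1 was lower in TBI+CB than in any other group at 4 h, with 4.83 and 5.82 in TBI+CB pools against 19.1 and 18.8 in TBI pools. Both carbenoxolone pools were also below both 4 h sham pools, which are of another slide run. Against TBI this was a log2 fold change of -1.84 (standard error 0.844, unadjusted p = 0.0498, adjusted p = 0.957), and of -1.36 after quantile normalization. TBI+MT pools stood at 8.35 and 13.5 at 4 h, between the TBI+CB and the TBI pools (log2 fold change -0.84 against TBI, 95% interval -2.68 to 1.00). At 24 h Timp1 stood at 40.8 and 41.7 in TBI+MT pools and at 84.2 and 21.4 in TBI+CB pools. The log2 fold changes against TBI were -0.83 (95% interval -2.67 to 1.01) and -0.78 (95% interval -2.62 to 1.06). The TBI+CB pool at 21.4 lay below the sham pool at 24.0, which was the single overlap of injured and sham pools at 24 h.

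When all 32 arrays entered the fit with the pool as a random block, Lcn2 (adjusted p = 0.0224) and Timp1 (adjusted p = 0.0402) passed the threshold in TBI against sham at 24 h. In that fit 0.0681% of all probes passed. With the injured groups averaged, Lcn2 (adjusted p = 0.00363) and Timp1 (adjusted p = 0.0372) also passed at 24 h, beside 0.091% of all probes. Over all alternatives the adjusted p in TBI against sham at 24 h ran between 0.0224 and 1.0 for Lcn2 and between 0.0402 and 1.0 for Timp1. With the injured groups averaged, that of Timp1 ran between 0.0372 and 1.0. The fit with the random block counts duplicate arrays of a pool as correlated values rather than as 1 value, which leaves more residual degrees of freedom. These come from duplicate arrays and not from more pools, so the p-values of that fit may be too small.

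Timp2 encodes an inhibitor that, unlike Timp1, also takes part in the activation of pro-Mmp2 at the cell surface. Its order of groups differed between the 2 times. At 4 h it stood at 1.61 and 2.89 in TBI+MT pools, 3.95 and 3.95 in TBI+CB pools, 4.87 and 8.07 in TBI pools and 7.81 and 11.1 in sham pools. All 4 drug-treated pools were below both TBI pools, and below both sham pools of the other slide run. The share of all probes in this order was not counted. Of all probes at 4 h, 70.4% were lower than TBI with metyrapone and 63.3% with carbenoxolone. TBI+MT differed from TBI by -1.54 on the log2 scale (standard error 0.580, unadjusted p = 0.0211, adjusted p = 0.736), and that of TBI+CB against TBI was -0.67 (95% interval -1.93 to 0.60). TBI against sham was -0.57 (95% interval -1.84 to 0.70). Averaged over the injured groups the log2 fold change against sham at 4 h was -1.31 (standard error 0.474, adjusted p = 1.0).

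At 24 h Timp2 stood at 3.32 and 4.93 in TBI+MT pools, 9.31 and 6.88 in TBI+CB pools, 4.40 and 4.96 in TBI pools and 1.35 and 3.89 in sham pools. The carbenoxolone pools were the highest at this time, and both TBI pools exceeded both sham pools. TBI against sham had a log2 fold change of 1.03 (95% interval -0.23 to 2.30), with 0.26 when sham replicate 1 and 1.81 when sham replicate 2 was left out. That of TBI+CB against TBI was 0.78 (95% interval -0.48 to 2.05), after -0.67 at 4 h. The difference between the times was 1.45 (standard error 0.821, adjusted p = 0.574) and did not pass the test. For TBI against sham this difference was 1.60 (standard error 0.821, adjusted p = 1.0).

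Mmp9 (gelatinase B) is an inducible protease of neutrophils, endothelial cells, microglia and neurons. At 4 h it stood at 6.83 and 12.1 in TBI pools, against 2.42 and 1.85 in sham pools. The log2 fold change was 2.10 (95% interval -0.20 to 4.41, adjusted p = 0.936) and 1.69 within slide run 1. At 24 h Mmp9 stood at 3.99 and 1.68 in TBI pools, against 0.466 and 1.10 in sham pools, which were near background on all 4 arrays. With sham at its bound, Mmp9 was on average at least 2.32-fold higher in TBI than in sham at 24 h (adjusted p = 1.0). The fitted log2 fold change was 1.87 (95% interval -0.44 to 4.18), and this interval includes no change. TBI levels of Mmp9 were lower at 24 h than at 4 h, and so were its sham levels, whereas TBI levels of Timp1 were higher at 24 h. For Mmp9 the log2 fold change of TBI against sham differed between the times by -0.23 (95% interval -3.50 to 3.03). A waning of its difference from sham is therefore not shown.

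With metyrapone Mmp9 differed mostly between its own pools. It stood at 0.884 and 6.79 in TBI+MT pools at 4 h and at 1.08 and 9.72 at 24 h, and replicate 1 was near background on both arrays at each time. The log2 fold change against TBI was -1.89 at 4 h (95% interval -4.20 to 0.41), with -0.42 when TBI+MT replicate 1 and -3.36 when TBI+MT replicate 2 was left out. At 24 h it was 0.31 (95% interval -1.99 to 2.62). In TBI+CB pools Mmp9 stood at 5.07 and 6.16 at 4 h, both below the TBI pools, and at 6.67 and 4.19 at 24 h, both above them. The log2 fold changes against TBI were -0.70 (95% interval -3.01 to 1.60) and 1.02 (95% interval -1.28 to 3.33). The difference between them was 1.73 (standard error 1.49, adjusted p = 0.605), and its 95% interval of -1.54 to 4.99 includes 0. Of all probes 8.54% had the order that Mmp9 and Timp2 show, with both TBI+CB pools below both TBI pools at 4 h and above both at 24 h.

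Mmp2 (gelatinase A), which is made constitutively by many cells of the brain, showed no change after injury of the size seen for Lcn2. Its probe GE1290773 stood at 7.07 and 10.9 in TBI pools at 4 h, against 6.85 and 12.3 in sham pools. At 24 h this probe stood at 14.8 and 15.2 in TBI pools, against 9.16 and 15.3 in sham pools. Over the 3 probes the log2 fold changes of TBI against sham ran between -0.07 and 0.28 at 4 h and between 0.14 and 0.34 at 24 h. The widest of their 95% intervals, -1.27 to 1.13 at 4 h and -0.86 to 1.54 at 24 h, still allow a change of more than 2-fold. The deposited raw intensity of this probe varied 3.91-fold over the 32 arrays, while the array medians varied 7.13-fold.

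At 24 h all 3 Mmp2 probes, which measure 1 gene in the same pools, were lower with each drug than in TBI. Of all probes 74.0% were lower with metyrapone and 51.3% with carbenoxolone. GE20994 stood at 1.03 and 1.54 in TBI+MT pools and 0.961 and 0.968 in TBI+CB pools, against 2.73 and 2.63 in TBI pools. Its TBI+MT arrays were all near background, so it was at least 1.89-fold lower with metyrapone (adjusted p = 0.889). With carbenoxolone, where replicate 2 was near background on both arrays, its log2 fold change was -1.50 (standard error 0.481, unadjusted p = 0.00900, adjusted p = 0.592). GE21135 stood at 1.74 (near background on both arrays) and 2.81 in TBI+MT pools and 2.97 and 3.00 in TBI+CB pools, against 4.65 and 5.49 in TBI pools. The log2 fold changes of GE21135 were -1.22 with metyrapone (95% interval -2.18 to -0.25, adjusted p = 0.836) and -0.76 with carbenoxolone (95% interval -1.72 to 0.21). Those of GE1290773 were smaller, at -0.44 with metyrapone and -0.69 with carbenoxolone. At 4 h no Mmp2 probe differed by 2-fold between a drug and TBI. The drug-treated pools at 24 h are those of slide run 3, and the part of the run in this difference was not tested.

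Plat (tissue plasminogen activator), a serine protease that neurons store and release, differed by less than 2-fold in each comparison of TBI with sham or of a drug with TBI. At 4 h it stood at 4.78 and 7.94 in TBI pools, against 3.13 and 4.74 in sham pools (log2 fold change 0.68, 95% interval -0.36 to 1.72). At 24 h it stood at 6.03 and 5.69 in TBI pools, against 3.27 and 5.50 in sham pools (log2 fold change 0.46, 95% interval -0.58 to 1.50). The TBI pools were above the sham pools at both times, and at 4 h the lower TBI and the higher sham pool nearly met. TBI+MT pools had 4.20 and 3.22 at 4 h, the second from 1 array since the spot on the other was masked, and 4.01 and 3.14 at 24 h. All 4 were below the TBI pools of their time, and of all probes 70.4% at 4 h and 74.0% at 24 h were lower with metyrapone. TBI+CB pools had 5.89 and 4.73 at 4 h and 4.11 and 4.49 at 24 h. The log2 fold changes against TBI were -0.74 and -0.73 with metyrapone and -0.22 and -0.46 with carbenoxolone, at 4 and 24 h, and every 95% interval included 0. Within slide run 2 at 4 h, which holds 1 TBI pool, the difference with metyrapone was -1.11.

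**Figure D2:**
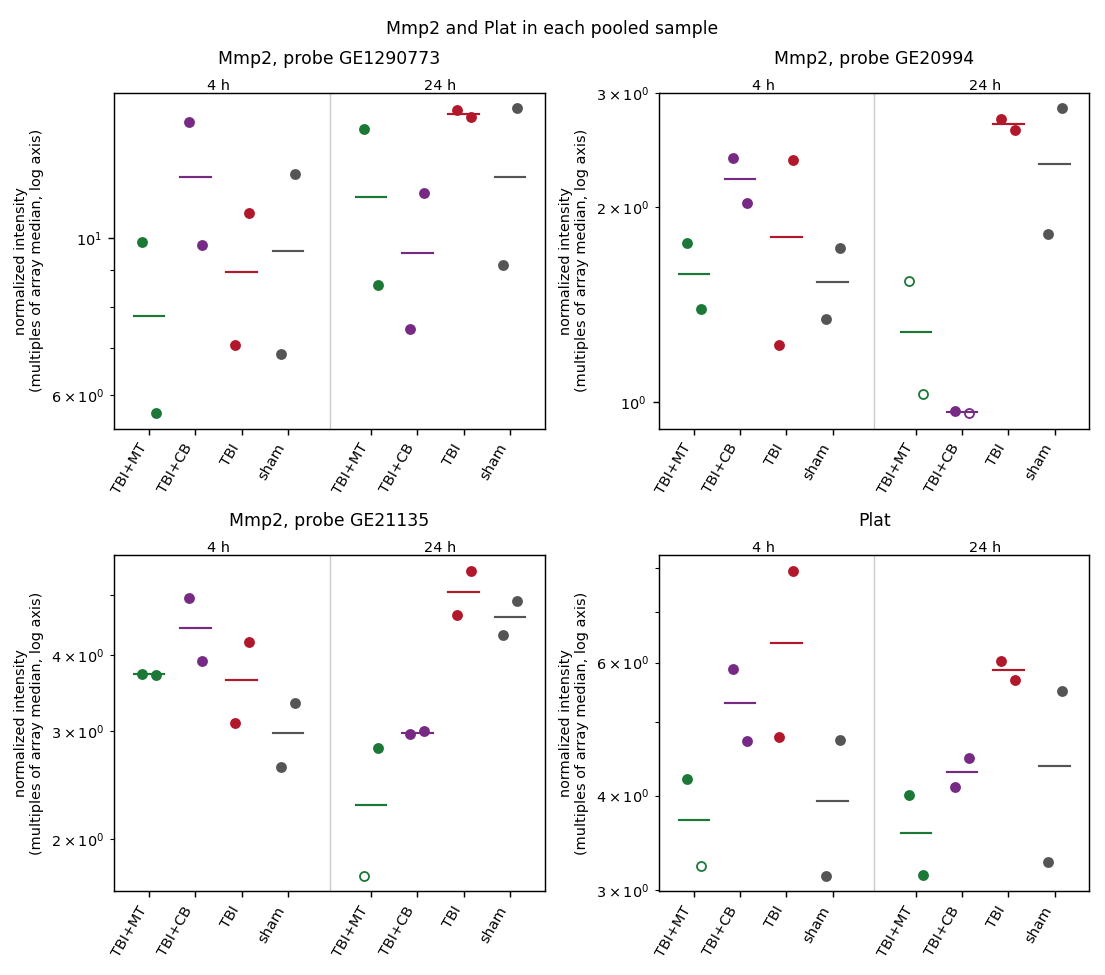
Normalized intensity of the 3 Mmp2 probes and of Plat in each pool (points, replicate 1 left of replicate 2, log axis) with the group mean (bar), filled where both arrays of a pool were above background. The 4 drug-treated pools at 24 h, all of slide run 3, had 0.961 to 1.54 for GE20994, below the TBI and sham pools of that time. Both TBI+MT pools and TBI+CB replicate 2 were near background for this probe. GE21135 had the same order, whereas for GE1290773 the drug-treated pools (7.45 to 14.3) overlapped the sham pools (9.16 and 15.3). The share of all probes in this order was not counted.

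The 3 genes that did not pass the filter give only few readings. Plaur, the receptor that holds urokinase at the cell surface, was above background on 9 of 32 arrays. It stood at 1.14 and 1.19 in TBI pools at 24 h, the first near background on both arrays, against 0.870 and 0.550 in sham pools, and at 0.535 and 0.821 in TBI pools at 4 h, against 0.225 and 0.543 in sham pools. Cd44, a receptor for hyaluronan and osteopontin on glia and leukocytes, was above background on 2 of 32 arrays. Both were those of TBI+MT replicate 2 at 24 h, a pool at 2.21. The other 5 injured pools at 24 h had 0.469 to 0.704 and the sham pools 0.196 and 0.188, all near background, where the order of pools cannot be read. Timp3, an inhibitor bound to the matrix, was above background on 1 of 32 arrays, in the same TBI+MT pool (2.05). In the other pools Timp3 was at most 0.688. A further probe that a CD44 cDNA record describes, GE20945, has no gene symbol in the platform annotation and is not a member. This probe was above background on 29 of 32 arrays and stood between 0.737 and 3.63 over the pools. At 24 h it stood at 3.63 and 1.60 in TBI+MT pools, so its higher pool is not the one in which Cd44 was above background.

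**Figure D3:**
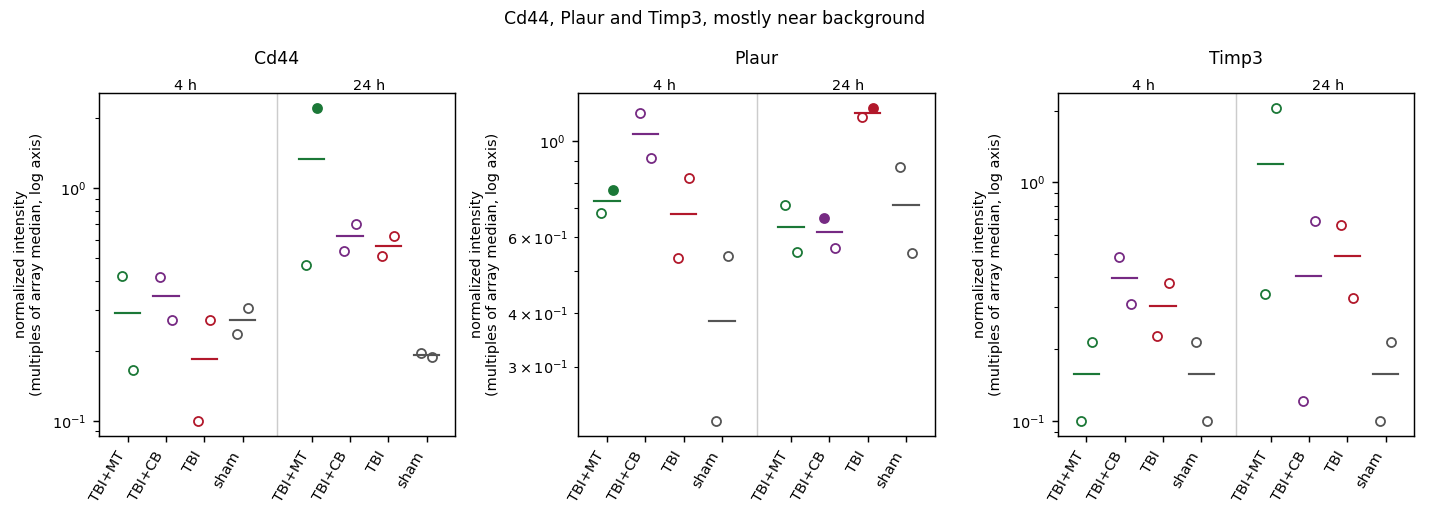
Normalized intensity of Cd44, Plaur and Timp3 in each pool (points, replicate 1 left of replicate 2, log axis) with the group mean (bar), filled where both arrays were above background. Values under 0.1 of the array median are drawn at 0.1, and nearly all points are open.

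Counted over the 8 tested probes, TBI exceeded sham by over 2-fold in 2 at 4 h (Lcn2 and Mmp9) and in 4 at 24 h (Lcn2, Timp1, Timp2 and Mmp9). Of all probes, 15.9% were over 2-fold higher and 7.35% over 2-fold lower at 4 h, and 4.09% and 6.71% at 24 h. The filter keeps a probe through its highest group, so these counts describe the probes and test nothing. All 8 probes had a positive log2 fold change at 24 h, as did 51.0% of all probes, with a median of 0.74 (the same with Lcn2 and Mmp9 at their bounds), beside 0.01 over all probes. At 4 h 6 were positive, as were 69.1% of all probes, with a median of 0.48, beside 0.33 over all probes. After quantile normalization the numbers of positive probes and of those over 2-fold were the same at both times.

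With metyrapone at 4 h 3 probes were over 2-fold lower than TBI (Lcn2, Timp2 and Mmp9) and 0 over 2-fold higher, and with carbenoxolone 2 (Lcn2 and Timp1) and 0. All probes gave 25.1% lower and 8.21% higher with metyrapone and 15.9% lower and 4.55% higher with carbenoxolone. The median log2 difference of all probes was -0.40 with metyrapone and -0.28 with carbenoxolone at 4 h, and -0.011 and 0.0087 after quantile normalization. With metyrapone 7 of the 8 probes were lower (70.4% of all probes) and 1 higher, and after quantile normalization 5 were lower and 3 higher, with 2 over 2-fold lower. With carbenoxolone 5 were lower (63.3% of all probes) and 3 higher, against 4 and 4 after quantile normalization, with 1 over 2-fold lower. At 24 h 2 probes, both of Mmp2, were over 2-fold lower with metyrapone (1 of them with GE20994 at its bound), beside 13.8% lower and 5.5% higher of all probes. Of the 8 probes 7 were lower (74.0% of all probes) and 1 higher, against 6 and 2 after quantile normalization, when 1 was over 2-fold lower. Carbenoxolone had 1 higher (Mmp9) and 1 lower (an Mmp2 probe), beside 14.3% and 15.2%. With carbenoxolone at 24 h 6 of the 8 probes were lower (51.3% of all probes) and 2 higher, and the same after quantile normalization. The comparisons of the drugs with TBI and of TBI with sham share the TBI pools, so a high TBI pool raises one and lowers the other. Within slide run 2 the 4 h differences from its 1 TBI pool were -1.91 for Timp2 and -2.31 for Mmp9 with metyrapone, and -1.03 for Timp2, -1.12 for Mmp9 and -1.83 for Timp1 with carbenoxolone. For Lcn2 they were -1.59 with metyrapone and -1.21 with carbenoxolone. Within slide run 1 TBI against sham at 4 h was 0.82 for Timp1 and -0.94 for Timp2.

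No member passed an adjusted p of 0.05 with limma in any of the 13 comparisons, and of all probes 0% passed. At an unadjusted p under 0.05 there were 1 of 8 member probes in TBI against sham at 4 h, 2 at 24 h, 1 with each drug against TBI at 4 h, and 2 with metyrapone and 1 with carbenoxolone against TBI at 24 h. Of all probes this was 3.34% in TBI against sham at 4 h and 1.84% at 24 h. At 4 h it was 4.73% with metyrapone and 3.44% with carbenoxolone, and at 24 h 5.51% with metyrapone and 8.22% with carbenoxolone. TBI+MT and TBI+CB differed by less than 2-fold in each tested probe at 24 h and in all but Mmp9 at 4 h (log2 fold change -1.19 of TBI+MT against TBI+CB, 95% interval -3.50 to 1.12). For Lcn2 the log2 fold changes of TBI+MT against TBI+CB were -0.37 (95% interval -2.39 to 1.64) at 4 h and -0.01 (95% interval -2.02 to 2.00) at 24 h, so the drugs are not shown to act alike.

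**Figure D4:**
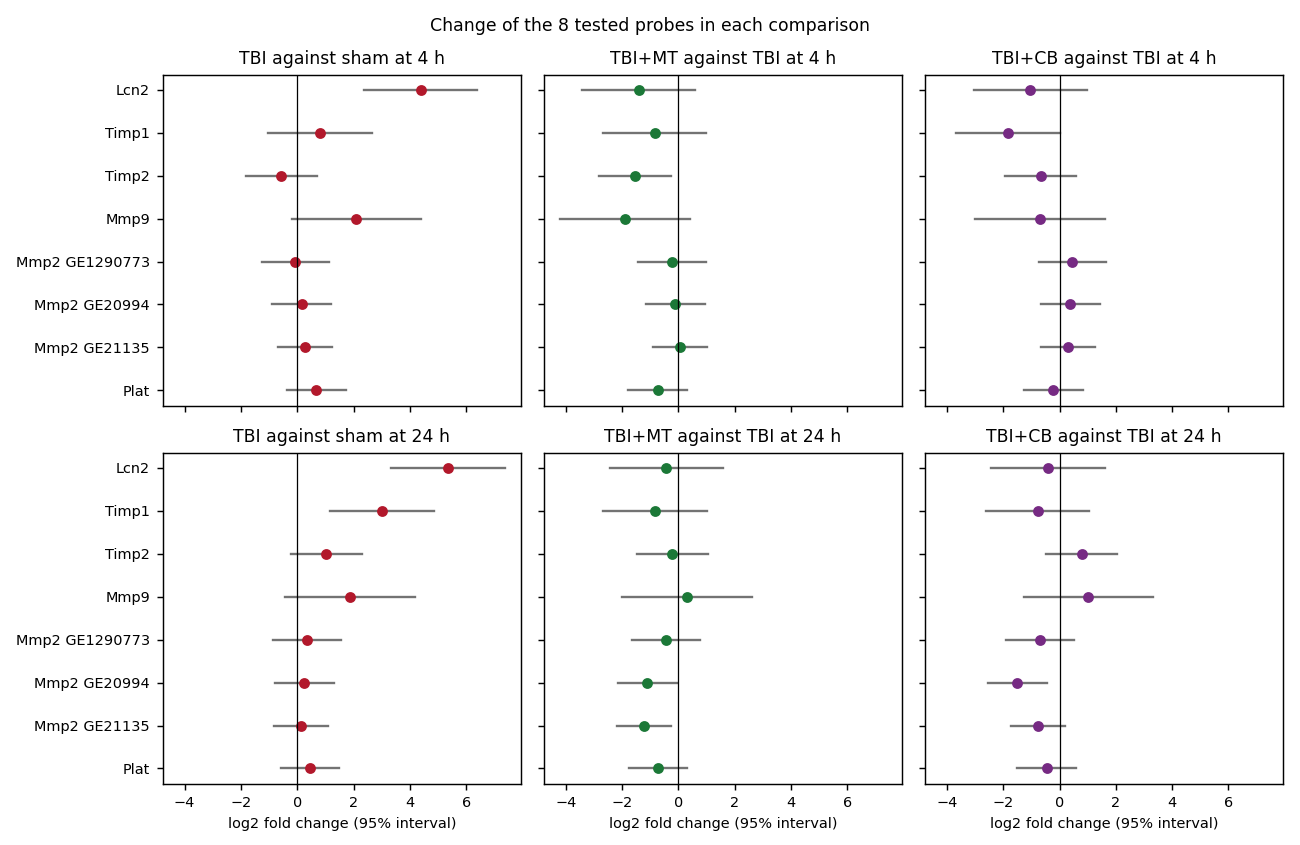
Log2 fold change (points) with its 95% interval (lines) of the 8 tested probes in 6 comparisons, 4 h above and 24 h below. The intervals of Lcn2 in TBI against sham at both times and of Timp1 at 24 h lie above 0 before adjustment over all probes. The points of Lcn2 and Mmp9 in TBI against sham and of GE20994 with metyrapone at 24 h are fitted values for groups near background, given in the text as bounds.

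Other acute phase genes, listed together with the receptor genes Tfrc, Slc22a17 and Pigr, were mixed. Of the 21 on the array 9 passed the filter, Tfrc and Slc22a17 among them. The other 12 were above background on at most 2 of 32 arrays. In TBI against sham 4 were higher and 5 lower at 4 h (median log2 fold change -0.10, beside 0.33 over all probes) and 6 higher and 3 lower at 24 h (0.15, beside 0.01). The complement gene C3 had a log2 fold change of 0.58 at 24 h (standard error 0.481) and the serpin Serpina3n 0.37 at 4 h (standard error 0.475). Tfrc, the transferrin receptor, stood at 8.16 and 8.72 in TBI pools at 4 h, against 3.47 and 3.80 in sham pools (log2 fold change 1.21, adjusted p = 0.936). At 24 h the TBI pools of Tfrc were near background at 0.600 and 0.958, against 1.41 and 5.13 in sham pools. Slc22a17, which encodes a receptor for lipocalin 2 and was named after its values were seen, stood at 784 and 798 in TBI pools at 24 h, against 686 and 738 in sham pools.

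Among the other proteases, 3 of 13 matrix metalloproteinases on the array passed the filter (Mmp13, Mmp15 and Mmp19). Only Mmp15, which sits in the cell membrane, had a difference over 2-fold in TBI against sham, at 4 h (log2 fold change 1.03, standard error 0.722). Of 6 tested ADAM and ADAMTS genes 5 were higher in TBI at each time. The largest was Adamts1, a secreted protease that cuts versican and aggrecan, at 6.29 and 15.7 in TBI pools against 0.997 and 2.40 in sham pools at 4 h (log2 fold change 2.69, standard error 1.35, adjusted p = 0.936). At 24 h Adamts1 stood at 1.17 and 3.84 in TBI pools, against 0.913 and a value at the floor of 0.1 in sham pools.

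Inhibitors and the plasminogen system were mixed. Of 9 tested matrix protease inhibitors 5 were higher in TBI at 4 h and 3 at 24 h (median log2 fold changes 0.41 and -0.24). Serping1, the C1 inhibitor, stood at 3.84 and 4.04 in TBI pools at 24 h, against 0.369 and 1.43 in sham pools, which were near background. Serpine2, an inhibitor of thrombin and plasminogen activators, had log2 fold changes of 1.25 at 4 h and -1.22 at 24 h (standard error 0.775 each). Of 9 tested plasminogen system genes 8 were higher at 4 h and 4 at 24 h (medians 0.53 and -0.10). Plau, the urokinase that Plaur binds, stood at 0.708 and 2.09 in TBI pools at 4 h, against 0.480 and 0.571 in sham pools, which were near background. Beside these, 69.1% of all probes were higher at 4 h, with a median of 0.33, and 51.0% at 24 h, with a median of 0.01. Among 6 tested ligands and partners of Cd44, all were higher at 4 h (median 0.62) and 4 at 24 h (median 0.28), with Vcan (versican) at 0.769 and 3.83 in TBI pools against 0.208 and 0.443 near background in sham pools at 4 h.

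Genes of NF-kB, STAT3 and C/EBP signaling, factors known to act on the Lcn2 or Timp1 promoter, were higher in TBI for 9 of 11 at 4 h and 11 of 12 at 24 h (medians 0.73 and 0.44, beside 0.33 and 0.01 over all probes). Nfkbia, the NF-kB inhibitor and itself a target of NF-kB, stood at 24.1 and 65.4 in TBI pools at 4 h, against 12.7 and 13.8 in sham pools (log2 fold change 1.58, adjusted p = 0.936). Cebpd stood at 9.95 and 10.3 in TBI pools at 24 h, against 3.14 and 3.26 in sham pools (log2 fold change 1.67, standard error 1.12). Stat3 stood at 10.2 and 10.9 in TBI pools at 24 h, against 2.55 and 4.15 in sham pools (log2 fold change 1.70, standard error 1.09). In none of these lists did a gene pass the threshold in TBI against sham.

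Markers of other cell types were present in the captured material, and some were higher in TBI at 24 h, as were Lcn2 and Timp1. At 24 h Gfap of astrocytes stood at 33.5 and 39.4 in TBI pools, against 2.63 and 5.10 in sham pools (log2 fold change 3.31, adjusted p = 0.339), and Vim at 75.9 and 84.0 against 13.9 and 17.9. Of 8 tested astrocyte markers 3 were higher and 5 lower, with a summed level of 205 to 241 in TBI and 159.6 to 183 in sham pools. All 8 tested markers of microglia and macrophages were higher in TBI at 24 h (median log2 fold change 1.52), with a summed level of 131 to 147 in TBI and 36.0 to 67.2 in sham pools. Cd68 stood at 3.74 and 4.41 in TBI pools, against 0.423 and 0.784 near background in sham pools. At 4 h 2 of these 8 markers were higher, with a summed level of 40.6 to 53.1 in TBI and 52.3 to 147 in sham pools, while Gfap stood at 10.2 and 15.3 against 3.78 and 6.80. Of 8 tested markers of endothelium and pericytes 2 were higher at 4 h and 6 at 24 h, with a summed level at 24 h of 71.1 to 85.7 in TBI and 57.6 to 57.7 in sham pools. Of 6 oligodendrocyte markers 4 were higher at each time, of 4 of the meninges and choroid plexus 3 at 4 h and 4 at 24 h, and of 2 of blood 1 and 2. With metyrapone against TBI at 4 h all 8 astrocyte markers were lower (median log2 fold change -0.97, beside -0.40 over all probes), with a summed level of 105 to 182 in TBI+MT and 231 to 528 in TBI pools. Of the endothelial and pericyte markers 5 of 8 were lower, with a summed level of 27.9 to 29.1 in TBI+MT and 52.0 to 58.6 in TBI pools, and of the microglial ones 7 of 8, with 29.8 to 34.0 and 40.6 to 53.1. With carbenoxolone at 4 h 5 of 8 were lower in each of these lists. At 24 h all 8 endothelial and pericyte markers were lower with each drug than in TBI, beside 74.0% of all probes with metyrapone and 51.3% with carbenoxolone. Their summed level was 37.5 to 54.2 in TBI+MT, 42.5 to 67.8 in TBI+CB and 71.1 to 85.7 in TBI pools. The part of these cells in the results for the members was not tested.

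Neutrophils carry large amounts of lipocalin 2 and Mmp9 protein. Of their 6 markers on the array 5, including S100a8, Mpo and Camp, were above background on at most 2 of 32 arrays. Camp reached 9.55 in 1 TBI+MT pool at 4 h and was at most 0.727 in the others. S100a9 stood at 1.03 and 2.01 in TBI pools against 1.31 and 1.47 in sham pools at 4 h, and at 1.16 and 1.60 in TBI pools against 0.772 and 1.61 in sham pools at 24 h. The captured cells carried Slc17a7 (5.60 to 31.0), Camk2a (4.57 to 55.2) and Grik4 (73.8 to 252) of pyramidal neurons on all 32 arrays. Their summed level at 24 h was 143 and 223 in TBI+MT pools, 240.2 and 84.0 in TBI+CB pools, 169 and 258 in TBI pools and 277 and 287 in sham pools. This sum, in which Grik4 as the brightest gene weighs most, was thus below both sham pools in all injured pools at 24 h. Of all single probes 2.17% had this order. Of the 3 genes 1 was higher and 2 were lower in TBI than in sham at 24 h. The sum was lowest in TBI+CB replicate 2, the pool that was also lowest of the injured 24 h pools in Lcn2 and Timp1. That pool was dim, with 30.0 and 30.2% of probes above background on its arrays. At 4 h the sums overlapped, at 269.6 to 306 in TBI and 248 to 298 in sham pools. The neuronal genes Snap25 and Neurod2 were above background on 0 and 4 arrays.

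**Figure D5:**
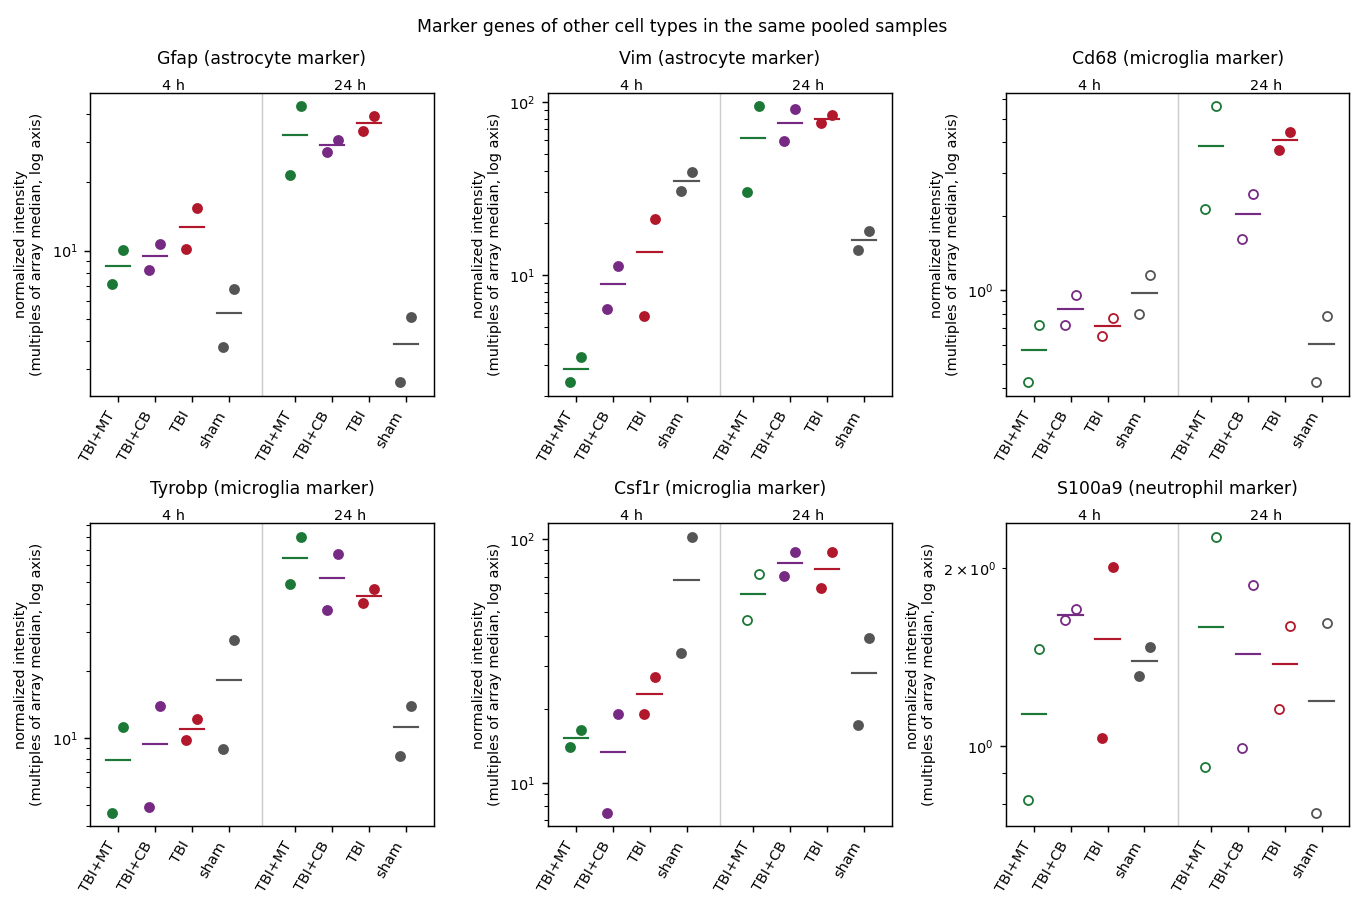
Normalized intensity of Gfap and Vim (astrocytes), Cd68, Tyrobp and Csf1r (microglia) and S100a9 (neutrophils) in each pool (points, lower pool left, log axis) with the group mean (bar), filled where all 4 arrays of a group were above background. At 24 h the injured pools of Gfap (21.6 to 43.2) lie above the sham pools (2.63 and 5.10), an order that 1.17% of all probes had, whereas those of S100a9 overlap. Of the 8 tested astrocyte markers 3, with Gfap and Vim among them, were higher and 5 lower in TBI at 24 h.

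The named genes whose log2 values were most like those of each member over the 16 pools are given as a description, since the pools share libraries, slide runs and groups. For Lcn2 they were Cd14 (Pearson r = 0.859), Eva1b (0.823) and Plek (0.823), and for Timp1 Hspb1 (0.909), Igfbp2 (0.889) and Tagln2 (0.885). For Mmp9 they were Tnfrsf1a (0.900), Zfp36l1 (0.889) and Arhgap25 (0.875), and for Timp2 Reln (0.843), Gcnt2 (0.830) and Laptm5 (0.829). Plat was most like Gpr83 (0.912), Cop1 (0.878) and Tns1 (0.876). The Mmp2 probes had r of 0.978 with Senp1 (GE1290773), 0.950 with Krt10 (GE20994) and 0.962 with Scn4a (GE21135), and their nearest genes were different for each probe.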

How the data were processed

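The authors scanned CodeLink rat arrays and deposited the intensity of each spot as the scanner software gave it, with a quality flag, and the methods divide each raw intensity by the median of the array. Values below 0 occur, so subtraction of the local background is inferred. RNA had been amplified in 2 rounds. The deposited processed values, also intensities, were used as an alternative.

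Raw intensities were scaled here in the same way, with values under 0.1 raised to it, and log2 was taken. Spots flagged irregular or masked were left out and duplicate arrays averaged. A probe was kept if some group had all 4 arrays above background, which left 17635 probes. A linear model with a mean for each of the 8 groups was fitted with limma 3.58.1 under R 4.3.3. It had 8 residual degrees of freedom and 3.88 prior ones, and p-values were adjusted after Benjamini and Hochberg over all probes kept. The labels give the 2 pools of a group as separate samples and no more, so p-values measure the spread between pools. The fit was tested on simulated data.

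Where a probe was near background on all arrays of a group, a change is given as a bound against the lowest signal above background on each array. Such a bound concerns the mean of the pools and is not the limit of an interval. Each gene of a list is represented by its brightest probe on average. Named are all members, at most 4 genes of each list by smallest p in TBI against sham at the time described (others are said to be named after their values were seen, or failed the filter), and the 3 genes most like each member. Members and lists were chosen with earlier results of these data known. Promoter sequences are from RefSeq (GRCr8). Symbols were updated by gene number for 16834 probes. The alternatives changed the scaling, the source of the values, the floor, the filter, the handling of irregular spots and of duplicate arrays, the groups fitted, the variance model, the blocks and the pools included.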

Additional observations from a re-analysis of the deposited data

Results flagged for a closer look

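Timp2 and Mmp9 had their pools in opposite order at the 2 times with carbenoxolone. For each gene both TBI+CB pools were below both TBI pools at 4 h and above both at 24 h. The log2 difference of TBI+CB against TBI at 24 h minus that at 4 h was 1.45 for Timp2 (standard error 0.821, adjusted p = 0.574) and 1.73 for Mmp9 (standard error 1.49, adjusted p = 0.605), and neither passed the test. Of all probes 8.54% had the same order of pools at both times. The 24 h pools of TBI+CB belong to another slide run than the TBI pools, and its part was not tested.

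Signal was also seen in genes left out of the tests. Cd44 stood at 2.21 in TBI+MT replicate 2 at 24 h, with both arrays above background and above all sham pools, while the unnamed CD44 cDNA probe was higher in replicate 1 (3.63) than in replicate 2 (1.60) of that group. Plaur stood at 1.19 in TBI replicate 2 at 24 h, with both arrays above background and above all sham pools. Each rests on 1 pool.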

How the results depend on the processing

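The number of members called was 0 in each of the 13 comparisons and stayed 0 under each alternative with 3 exceptions. It was 1 (Lcn2) for all injured groups against sham at 24 h after quantile normalization. With all 32 arrays and the pool as a random block (consensus correlation 0.903) it was 2 (Lcn2 and Timp1) for that comparison and 2 for TBI against sham at 24 h. Of 302 values of member probes over 2-fold under other settings and 116 with a pool left out, none changed sign. Only changes already over 2-fold in the main fit were followed, mostly on the same pools, so a change of sign was unlikely. Smaller changes could change sign, as did Mmp2 probe GE1290773 with metyrapone against TBI at 4 h (log2 fold change -0.23, and 0.30 after quantile normalization). Leaving out 1 pool gave 0 called members in each of 72 cases. The replicate numbers do not pair the pools: the deviations of same-numbered pools correlated between -0.347 and 0.286, and with the replicate block 0 members were called. With crossed numbers for TBI+CB at 24 h, chosen after seeing the data, 0 were called as well. A slide run block was not run for the drugs against TBI or all injured groups against sham at 24 h, nor for the change of the drug differences with time, since run 3 holds only drug-treated pools. Plaur, Cd44 and Timp3 were tested only without the filter, and the lowest levels are limited by signal over background.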
